A study of Rattus norvegicus with 17 samples.

Results

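Fatty acid transport proteins and long-chain acyl-CoA synthetases were examined in the meibomian gland (MG) of the rat, the eyelid gland that secretes the lipid layer of the tear film. The genes were taken by name, and 9 of the 10 named genes had a row among the 17251 genes of the expression table. They were 4 genes of the Slc27 family (Slc27a1, Slc27a3, Slc27a4 and Slc27a6), 4 genes of the Acsl family (Acsl1, Acsl3, Acsl4 and Acsl5) and Acsbg1, and all 9 were expressed highly enough to be tested. Cd36, a membrane receptor that takes up long-chain fatty acids, was not analysed here.

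A fatty acid that enters a cell cannot be used until it is joined to coenzyme A. Acyl-CoA synthetases carry out this activation, and the resulting acyl-CoA feeds the wax esters, cholesteryl esters and triglycerides that meibocytes, the lipid-secreting cells of the gland, accumulate before they burst. Proteins of the Slc27 family, also called fatty acid transport proteins, combine uptake of long-chain fatty acids with the same activation step, which traps the fatty acid inside the cell.

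RNA-seq was performed on the MG of 17 female rats aged 10 to 12 weeks, in 4 groups. Control WT (n = 4) and Control P1.hMR (n = 5) rats received no UVB, whereas UVB WT (n = 3) and UVB P1.hMR (n = 5) rats were irradiated on the eyelids on 5 days. P1.hMR rats express the human mineralocorticoid receptor (MR, NR3C2) from a transgene under the proximal P1 promoter of that gene, so that the receptor is overexpressed wherever this promoter is active and not in the gland alone. WT rats are their wild-type counterparts, and both genotypes were on the Sprague-Dawley background. Levels are given in TPM, which counts transcripts relative to all transcripts of a rat and is scaled per transcript length, so that levels of different genes can be compared within a rat. In these whole glands, fewer cells of a type and less RNA per cell cannot be told apart.

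The libraries carried the transgene where their labels said so, with NR3C2 at 0 TPM in every WT rat and at 5.31 to 9.31 TPM in the P1.hMR rats. Between 12372 and 12737 genes reached 1 TPM in each rat. All 12 meibocyte markers examined, among them Awat2, Elovl3 and Fasn, were detected. Their summed level was 19900 to 23800 TPM in Control WT, 18100 to 21300 TPM in Control P1.hMR, 16800 to 17600 TPM in UVB WT and 15700 to 18700 TPM in UVB P1.hMR rats. Single markers did not all follow the sum, since 6 of the 12 had a higher mean after UVB in WT and 7 in P1.hMR rats. In the tests described below, 3 were called as higher and 1 as lower in WT, and 2 and 1 in P1.hMR rats. Markers of skeletal muscle summed to between 1870 and 4370 TPM in the 17 glands, so the dissected tissue held RNA of cells other than meibocytes.

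Slc27a4 and Acsl5 were the members whose levels were higher after UVB in every irradiated rat of both genotypes. The 250 bases before their start sites are shown because the results turn on this pair. They were read from the RefSeq promoter table of build GRCr8, which is not the rn7 build of the expression table. The Slc27a4 stretch lies at chr3:33472653-33472902 and the Acsl5 stretch at chr1:264294601-264294850, both on the plus strand, upstream of the first exon. Capitals mark the only matches found on either strand among 5 searched motifs.

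Slc27a4: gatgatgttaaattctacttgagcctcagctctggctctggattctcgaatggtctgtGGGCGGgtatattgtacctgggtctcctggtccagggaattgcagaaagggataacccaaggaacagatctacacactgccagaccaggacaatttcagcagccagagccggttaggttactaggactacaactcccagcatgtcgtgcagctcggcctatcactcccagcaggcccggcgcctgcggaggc

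Acsl5: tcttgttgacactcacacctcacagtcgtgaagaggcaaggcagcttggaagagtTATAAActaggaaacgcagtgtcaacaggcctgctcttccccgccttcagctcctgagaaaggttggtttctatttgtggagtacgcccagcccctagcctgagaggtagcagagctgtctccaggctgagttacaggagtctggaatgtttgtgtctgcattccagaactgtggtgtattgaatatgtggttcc

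The GC content of the stretch was 54.8% for Slc27a4 and 50.4% for Acsl5. Slc27a4 held 1 GC box (GGGCGG), a motif found in 32.4% of 27457 promoters of this length and in 5 of the 9 members, also Slc27a3, Acsbg1, Acsl3 and Acsl4. Acsl5 held 1 match to the TATA box letters (TATAAA), at position -195 from the start site. This motif was found anywhere in the window in 13.1% of promoters and in no other member. The AGGTCA motif of nuclear receptors occurred in 1 member, Slc27a1, and in 13.7% of promoters. The AGAACA motif of steroid receptors, which occurred in 17.1% of promoters, and the AP-1 motif TGANTCA, which occurred in 6.36%, matched none of the 9 members in this window. Slc27a4 and Acsl5 thus shared no searched motif, and each match is a string of letters, not a measured binding site.

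**Figure D1:**
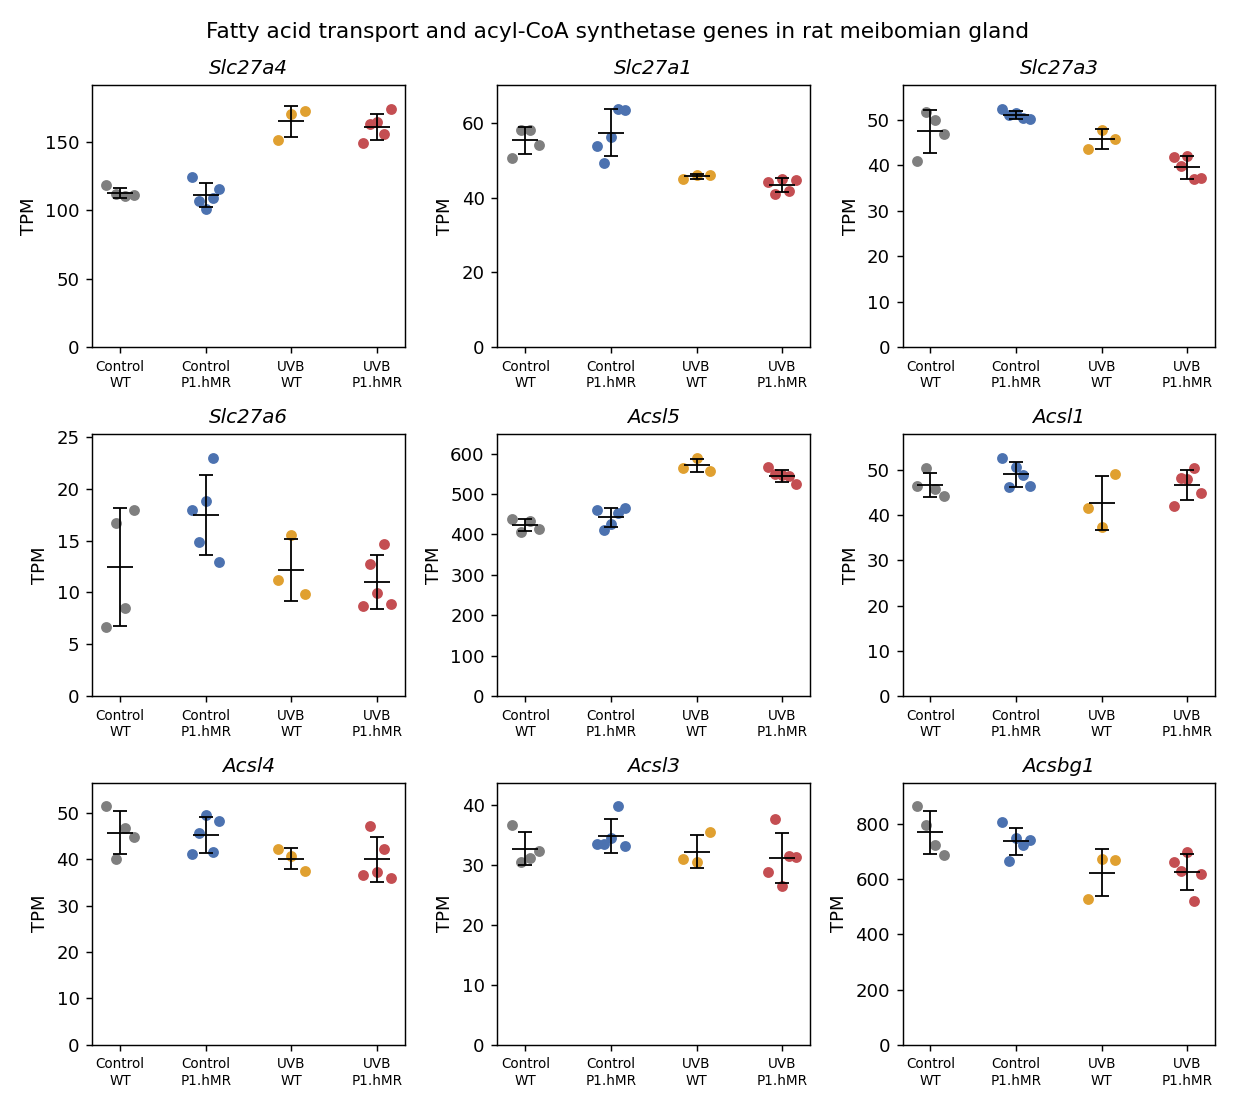
Level of the 9 genes in the MG of each rat, in TPM on linear axes that start at 0. Each point is a rat, the long horizontal line is the group mean and the bars give the SD over rats (4 Control WT, 5 Control P1.hMR, 3 UVB WT, 5 UVB P1.hMR). Slc27a4 lies between 149.53 and 174.27 TPM in the UVB rats and between 101.27 and 124.33 TPM in the controls, and Acsl5 shows the same separation, whereas Slc27a1 lies lower in the UVB rats.

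The 9 genes differed widely in level in the unirradiated gland. Acsbg1, an acyl-CoA synthetase of the bubblegum family that acts on long and very long fatty acids, had the highest mean in Control WT rats at 769 ± 77.6 TPM (SD, n = 4). Acsl5, a synthetase of mitochondria and endoplasmic reticulum known from the intestinal mucosa, followed at 423 ± 15.2 TPM, and Slc27a4, the transport protein whose loss disturbs the skin barrier, at 113 ± 3.63 TPM. These 3 genes took 83.5 to 85.9% of the summed TPM of the 9 members in Control WT rats and between 82.8 and 87.2% in the other groups.

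The remaining members lay far below. In Control WT rats, Slc27a1 had 55.3 ± 3.61, Slc27a3 47.4 ± 4.69, Acsl1 46.7 ± 2.65 and Acsl4 45.8 ± 4.68 TPM. Slc27a1 and Slc27a3, Slc27a3 and Acsl1, and Acsl1 and Acsl4 overlapped between rats, so the order of these neighbours is not separated by the spread. Acsl3 at 32.7 ± 2.81 TPM and Slc27a6 at 12.5 ± 5.71 TPM closed the order without overlap. After UVB, Acsbg1 and Acsl5 overlapped as well, at 624 ± 84.1 and 571 ± 16.9 TPM in UVB WT (n = 3) and at 626 ± 65.8 and 546 ± 14.9 TPM in UVB P1.hMR rats (n = 5).

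The comparison of UVB with control asks how the gland responds to eyelid irradiation in each genotype. Genes were tested with limma on log2(TPM + 1) with Benjamini-Hochberg adjustment over 13105 genes, and a gene was called differentially expressed when its adjusted p was under 0.05 and its log2 fold change reached 0.5 in either direction. On this scale fold changes of genes with low levels are understated. In WT rats 1 of the 9 members was called, Slc27a4, beside 7.91% of all genes tested, of which 3.92% were higher and 3.98% lower. In P1.hMR rats 2 of the 9 were called, Slc27a4 as higher and Slc27a6 as lower, beside 10.8% of all genes, with 5.05% higher and 5.71% lower. The median over the members was -0.05 for WT and -0.18 for P1.hMR animals on the log2 scale, beside 0.01 and -0.02 over all genes.

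The fold threshold decided most of these calls. With an adjusted p under 0.05 alone, 4 of the 9 members passed in WT rats, beside 21.5% of all genes, and 6 of the 9 in P1.hMR rats, beside 39.1%. The UVB and control rats did not overlap for 4 of the 9 members in either genotype. In WT these were Slc27a4 and Acsl5, which were higher, and Slc27a1 and Acsbg1, which were lower, beside 26.6% of all genes without overlap. In P1.hMR they were Slc27a4, Acsl5, Slc27a1 and Slc27a3, the last 2 lower, beside 27.2% of all genes.

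**Figure D2:**
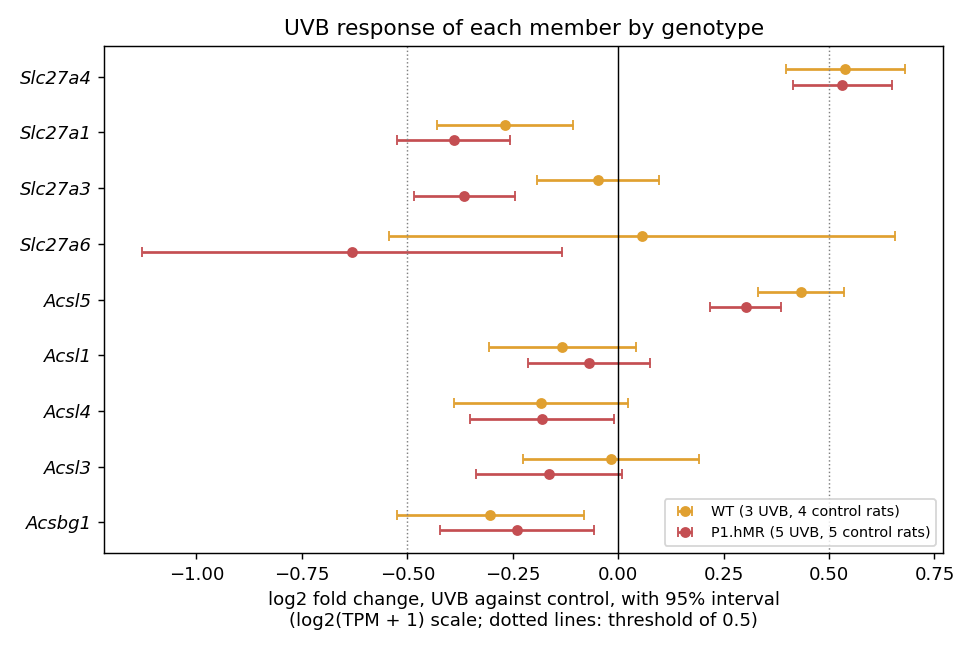
Log2 fold change of each gene after UVB within WT rats (orange, 3 UVB and 4 control) and within P1.hMR rats (red, 5 UVB and 5 control), on the log2(TPM + 1) scale, with 95% confidence intervals from limma and dotted lines at the fold threshold of 0.5. Slc27a4 lies at 0.54 and 0.53, Acsl5 at 0.43 and 0.30, and the other 7 genes lie near or below 0.

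Slc27a4 rose in both genotypes. The Control WT rats had 118.36, 112.12, 110.25 and 111.43 TPM and the UVB WT rats 151.69, 170.28 and 172.67 TPM. In P1.hMR rats, the controls had 124.33, 107.18, 101.27, 108.78 and 115.5 TPM and the UVB rats 149.53, 162.81, 164.46, 155.71 and 174.27 TPM. Every UVB rat was above every control rat of either genotype. The log2 fold change was 0.54 in WT (SE 0.07, 95% interval 0.40 to 0.68, limma adjusted p = 0.000115) and 0.53 in P1.hMR rats (SE 0.06, 0.41 to 0.65, limma adjusted p = 4.76e-06), or 1.45-fold in each. These values lie just above the fold threshold. Without Control P1.hMR rat 3, the lowest control, the P1.hMR value was 0.50 and fell short of the threshold at a limma adjusted p of 1.89e-05. The P1.hMR value was 0.47 with the mean log2(TPM + 1) of the meibocyte markers, not their summed TPM, as a covariate. The response differed between genotypes by -0.01 (95% interval -0.19 to 0.18, limma adjusted p = 0.995).

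Slc27a4 also took a larger part of the Slc27 messages after UVB. Its share of the summed TPM of the 4 Slc27 genes, examined after the levels were seen and described without a test, was 46.9 to 54.6% in Control WT, 44.2 to 50.0% in Control P1.hMR, 60.4 to 62.9% in UVB WT and 61.2 to 65.8% in UVB P1.hMR rats. The summed Slc27 level itself was 228 ± 9.18 TPM in Control WT (n = 4) and 268 ± 15.0 TPM in UVB WT rats (n = 3), and the exact permutation p of 0.0571 is the smallest that 4 against 3 rats allow. In P1.hMR rats it was 237 ± 11.6 and 255 ± 8.55 TPM (n = 5 each, exact permutation p = 0.0317, adjusted over 12 tests 0.0571). The adjusted value passed 0.05 without UVB P1.hMR rat 1, where the difference was 20.6 TPM in place of 17.8 TPM.

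Acsl5 was higher after UVB without reaching the fold threshold. The Control WT rats had 437.73, 406.03, 433.18 and 413.97 TPM and the UVB WT rats 565.35, 590.44 and 558.27 TPM. The Control P1.hMR rats had 460.21, 411.94, 425.15, 453.22 and 465 TPM, and the UVB P1.hMR rats 566.4, 549.41, 546.63, 543.87 and 524.79 TPM. All 8 irradiated rats were above all 9 control rats, although the step was smaller than for Slc27a4. The log2 fold change was 0.43 in WT (SE 0.05, 95% interval 0.33 to 0.54, limma adjusted p = 4.15e-05), a 1.35-fold difference, and 0.30 in P1.hMR rats (SE 0.04, limma adjusted p = 3.11e-05), a 1.23-fold difference. The difference between the genotypes in this response was -0.13 (95% interval -0.26 to 0.00, limma adjusted p = 0.711).

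The other Acsl genes did not pass the test in either genotype. Acsl1, the main synthetase of adipose tissue, liver and heart, had log2 fold changes of -0.13 in WT (limma adjusted p = 0.267) and -0.07 for P1.hMR (adjusted p = 0.448). Acsl4, which prefers arachidonic acid and sensitises cells to ferroptosis, had -0.18 in each genotype (limma adjusted p = 0.197 and 0.0885). Acsl3, which sits on the endoplasmic reticulum and on nascent lipid droplets, had -0.02 (limma adjusted p = 0.927) and -0.16 (adjusted p = 0.124). Their levels overlapped between UVB and control rats, with Acsl1 between 37.34 and 52.71 TPM, Acsl4 between 36.1 and 51.45 TPM and Acsl3 between 26.48 and 39.73 TPM over the 17 rats.

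The make-up of the Acsl family differed between irradiated and control glands. Acsl5 held 77.2 ± 0.548% of the summed TPM of Acsl1, Acsl3, Acsl4 and Acsl5 in Control WT rats (76.5 to 77.8%, n = 4) and 83.2 ± 1.22% in UVB WT rats (82.0 to 84.5%, n = 3), a difference of 6.06 percentage points. In P1.hMR rats the share was 77.4 ± 1.08% in controls (75.9 to 78.4%) and 82.3 ± 1.39% after UVB (80.5 to 84.1%, n = 5 each), a difference of 4.86 points. The groups did not overlap in either genotype. The exact permutation p was 0.00794 in P1.hMR rats (adjusted over 12 tests 0.019) and 0.0571 in WT rats, each the smallest that the number of rats allows, so that WT rats could not reach 0.05.

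Each of the 3 other Acsl genes had a smaller mean share after UVB. In P1.hMR rats the share of Acsl1 was lower by 1.53, that of Acsl3 by 1.41 and that of Acsl4 by 1.92 percentage points, each at an exact permutation p adjusted to 0.019. In WT rats these differences were -2.3, -1.25 and -2.5 points, each at the smallest possible exact p of 0.0571. The summed Acsl level was 548 ± 20.5 TPM in Control WT and 686 ± 10.8 TPM in UVB WT rats, and 572 ± 23.2 and 664 ± 17.4 TPM in P1.hMR rats. The last difference, 91.8 TPM, had an exact permutation p adjusted to 0.019. Shares are not independent of one another or of the sum, and Acsl5 holds most of that sum. The share and sum tests thus largely restate the higher Acsl5 level. They are not separate results on Acsl1, Acsl3 or Acsl4, none of which passed its own test.

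**Figure D3:**
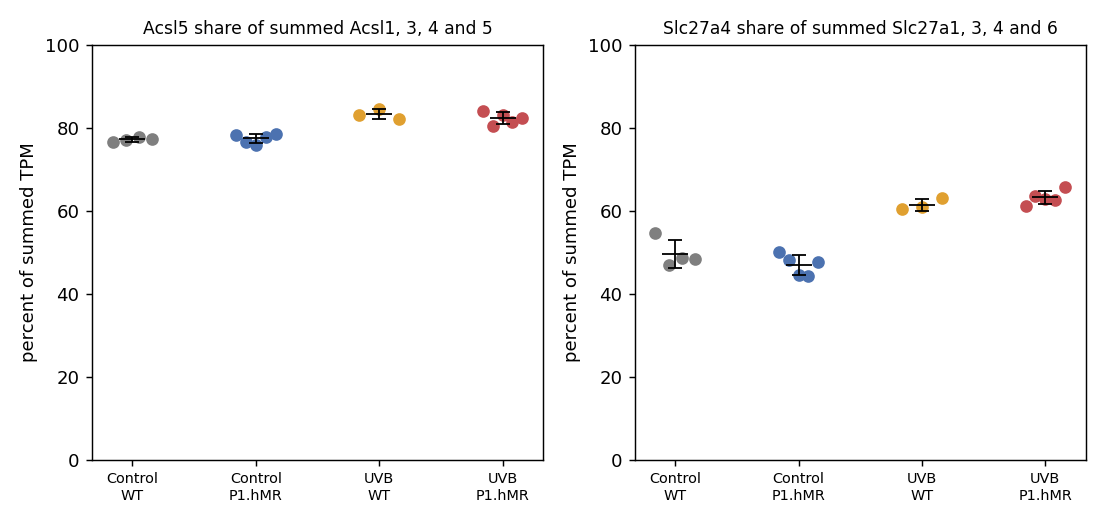
Left, Acsl5 as a percent of the summed TPM of Acsl1, Acsl3, Acsl4 and Acsl5, and right, Slc27a4 as a percent of the summed TPM of Slc27a1, Slc27a3, Slc27a4 and Slc27a6, with each point a rat, the long line the group mean and the bars the SD. The Acsl5 share lies at 75.9 to 78.4% in the controls and 80.5 to 84.5% in the UVB rats, and the Slc27a4 share at 44.2 to 54.6% and 60.4 to 65.8%.

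Slc27a1 lay lower after UVB in both genotypes, by less than the fold threshold. Slc27a1, the transport protein known from muscle and adipose tissue, had 50.68, 58.22, 58.09 and 54.12 TPM in Control WT and 44.94, 45.94 and 46.14 TPM in UVB WT rats. In P1.hMR rats it had 53.89, 49.38, 56.23, 63.77 and 63.52 TPM in controls and 44.12, 40.97, 44.94, 41.9 and 44.83 TPM after UVB. All irradiated rats were below all controls. The log2 fold change was -0.27 in WT (SE 0.08, limma adjusted p = 0.0202) and -0.39 in P1.hMR rats (SE 0.06, limma adjusted p = 0.000181). In WT rats the adjusted p lay above 0.05 when Control WT rat 2 (0.0547) or 3 (0.0548) or UVB WT rat 1 (0.0586) or 2 (0.0503) was left out of the limma fit.

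Slc27a3, a family member with acyl-CoA synthetase activity, was lower after UVB in P1.hMR rats, again by less than the fold threshold. The Control P1.hMR rats had 52.39, 50.98, 51.44, 50.45 and 50.24 TPM and the UVB P1.hMR rats 41.83, 39.85, 41.97, 36.89 and 37.09 TPM, without overlap. The WT rats overlapped, with 41.01, 51.76, 49.83 and 46.91 TPM in controls and 43.46, 47.81 and 45.7 TPM after UVB. The log2 fold change was -0.36 in P1.hMR (SE 0.06, limma adjusted p = 0.000127) and -0.05 in WT rats (limma adjusted p = 0.655). The interaction of genotype and UVB was -0.32 (SE 0.09, 95% interval -0.50 to -0.13) and did not pass after adjustment over all genes (limma adjusted p = 0.704).

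Acsbg1 was also lower after UVB. The controls had 863.32, 797.43, 724.66 and 688.95 TPM in WT and 805.43, 667.46, 748.8, 722.65 and 741.81 TPM in P1.hMR rats. After UVB the WT rats had 527.01, 674.49 and 670.93 TPM and the P1.hMR rats 661.08, 629.36, 697.63, 521.66 and 620.15 TPM. The groups did not overlap in WT and overlapped in P1.hMR rats, where 1 control had 667.46 TPM. The log2 fold change was -0.30 in WT (SE 0.10, limma adjusted p = 0.0483) and -0.24 in P1.hMR rats (SE 0.09, limma adjusted p = 0.0376). Both values rest on single animals, since the limma adjusted p was 0.235 at a log2 fold change of -0.19 without UVB WT rat 1, the lowest of its group, and 0.105 at -0.18 without UVB P1.hMR rat 4.

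Slc27a6, a transport protein described in heart muscle, had the lowest level and the widest relative spread. It had 6.64, 16.75, 8.49 and 17.93 TPM in Control WT and 11.25, 15.55 and 9.82 TPM in UVB WT rats. The Control P1.hMR rats had 18.02, 14.86, 18.86, 23.04 and 12.93 TPM and the UVB P1.hMR rats 8.73, 12.71, 9.95, 14.69 and 8.84 TPM. Groups overlapped in both genotypes. It fell in P1.hMR rats by 0.63 on the log2 scale (SE 0.23, limma adjusted p = 0.0429), and had a log2 fold change of 0.06 in WT rats (95% interval -0.54 to 0.66, limma adjusted p = 0.913).

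The Slc27a6 call was not stable. It was lost when Control P1.hMR rat 1 (limma adjusted p = 0.0724), 3 (0.0805) or 4 (0.105) or UVB P1.hMR rat 1 (0.0952), 3 (0.0787) or 5 (0.0952) was left out. With the mean log2(TPM + 1) of the meibocyte markers as a covariate its log2 fold change was -0.30 (limma adjusted p = 0.434). With that of the skeletal muscle markers it was -0.57 (adjusted p = 0.112).

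Marker lists of other cell types were measured beside these genes, and their summed levels and single genes did not always go together. The 10 adipocyte markers listed summed to 2220 to 2730 TPM in controls and 1660 to 1910 TPM in UVB rats, without overlap, but of the 9 tested 1 was called as lower in each genotype (Cidec in WT, Plin4 in P1.hMR). Cidea had -0.39 in P1.hMR rats (limma adjusted p = 4.23e-05), short of the fold threshold. Retn was called as higher in P1.hMR rats, at a log2 fold change of 2.29 (limma adjusted p = 4e-04), and Cfd and Lipe had values between 0.00 and 0.07. In each genotype 3 of the 9 had a higher mean after UVB. Macrophage markers summed to 94.0 to 173 TPM in controls and 141 to 276 TPM in UVB rats, and 5 of the 10 tested (C1qa, C1qb, C1qc, Cd163 and Mrc1) were called as higher in each genotype. The other 5 were not called. These were Cd68 (-0.36 in WT, -0.29 in P1.hMR), Csf1r (0.02 and -0.12), Adgre1 (0.06 and -0.19), Aif1 and Itgam. Aif1 had 0.51 and Itgam 0.13 in P1.hMR rats (limma adjusted p = 0.119 and 0.657). Counting called and uncalled genes, 9 of the 10 tested had a higher mean after UVB in WT and 7 in P1.hMR rats. Endothelial markers summed to a median of 92.5 TPM in Control WT and 108 TPM in UVB WT rats, and of 91.1 and 103 TPM in the P1.hMR groups. Of the 8 tested 7 had a higher mean after UVB in each genotype, with Vwf called in both and Esam in WT. Epidermal keratinocyte markers summed to 10500 to 13100 TPM in controls and 11600 to 16000 TPM in UVB rats. The genes called were lower, Ivl in both genotypes and Krt2 in P1.hMR. Krt14 had log2 fold changes of 0.48 for WT (limma adjusted p = 0.0175) and 0.498 for P1.hMR (adjusted p = 0.00204). Krt1 had 0.38 (limma adjusted p = 0.0754) and 0.45 (adjusted p = 0.00869), and neither gene reached the fold threshold. A higher mean after UVB was seen for 5 (WT) and 4 (P1.hMR) of the 9 tested. Hair keratins summed to 316 to 838 TPM in controls and 188 to 481 TPM in UVB rats. Of the 10 tested, 0 had a higher mean after UVB in either genotype, and 5 (WT) and 3 (P1.hMR) were called as lower. Skeletal muscle markers lay at 2480 to 4370 TPM in controls and 1870 to 3780 TPM in UVB rats. The part of the endothelial, epidermal, macrophage and hair follicle cells in the levels of Slc27a4, Acsl5 and the other members was not tested. Adipocyte, muscle and meibocyte markers were entered as covariates in separate fits, each as the mean log2(TPM + 1) of its list and not as the summed TPM. With the muscle markers as covariate Slc27a1 in WT rats had a log2 fold change of -0.24 (limma adjusted p = 0.0673).

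The comparison of P1.hMR with WT rats asks what overexpression of the human MR does to these genes. No member was called under UVB, beside 0.0229% of all genes, nor without UVB, beside 0.00763%, nor for the interaction, beside 0.0%, nor for genotype averaged over treatments, beside 0.00763%. At an unadjusted limma p under 0.05 there was 1 member under UVB (10.3% of all genes), 1 without UVB (4.03%), 1 for the interaction (6.92%) and 0 for the average (7.61%). The smallest adjusted p of a member was 0.305 under UVB and 0.998 without UVB.

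Slc27a3 was the member with the smallest p under UVB. Its 5 UVB P1.hMR rats, at 36.89 to 41.97 TPM, lay below the 3 UVB WT rats, at 43.46 to 47.81 TPM, and 5.87% of all genes showed no overlap in this comparison. The log2 fold change was -0.20 (SE 0.07, 95% interval -0.34 to -0.07, limma adjusted p = 0.305). Without UVB the value was 0.11 (limma adjusted p = 0.998) and the groups overlapped, as they did for all but 1.03% of genes.

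Slc27a6 had the largest genotype difference without UVB, with a log2 fold change of 0.54 (95% interval 0.02 to 1.07, limma adjusted p = 0.998), and the groups overlapped. Under UVB its value was -0.14 (limma adjusted p = 0.892), and the interaction was -0.69 (95% interval -1.47 to 0.09, limma adjusted p = 0.758). Over the 9 genes, the log2 fold changes between genotypes ran from -0.06 for Acsbg1 to 0.54 for Slc27a6 without UVB, and from -0.20 for Slc27a3 to 0.13 for Acsl1 under UVB.

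The genes that supply, bind and consume fatty acids and acyl-CoA place these values beside the rest of the pathway. Over all genes tested, UVB left 3.92% called as higher and 3.98% as lower in WT, and 5.05% and 5.71% in P1.hMR rats. Among lipases and their partners, 2 of 14 tested were called as higher in each genotype, and 3 (WT) and 5 (P1.hMR) as lower. Lpl, which releases fatty acids from lipoproteins at the vessel wall, rose from 12.93 to 17.72 TPM in Control WT to 35.21 to 37.74 TPM in UVB WT rats, and from 13.34 to 17.33 to 29.78 to 47.35 TPM in P1.hMR rats. Its log2 fold changes were 1.28 (limma adjusted p = 3.86e-05) and 1.43 (adjusted p = 5.4e-07), larger than that of any transporter or synthetase described here. Lipn, an acid lipase of the upper epidermis, had log2 fold changes of 0.64 in WT (limma adjusted p = 0.0454) and 1.29 for P1.hMR (adjusted p = 5.57e-05). Controls of both genotypes had only 0.56 to 1.27 TPM. Lipn reached 1 TPM in 3 or more rats, as testing required, only through the irradiated rats, so its calls are not independent of that filter. The UVB WT rats, at 1.19 to 3.12 TPM, overlapped with their controls. The UVB P1.hMR rats, at 2.45 to 5.24 TPM, did not.

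Lipases also fell. Lipk, a relative of Lipn, fell by 0.88 on the log2 scale in WT (limma adjusted p = 0.00311) and by 0.76 for P1.hMR (adjusted p = 0.000885). Ces2c, a carboxylesterase, fell by 0.93 in P1.hMR rats (limma adjusted p = 9.76e-06) and had a log2 fold change of -0.49 in WT rats (adjusted p = 0.0129), just short of the fold threshold. The other called falls, named here after their values were seen, were Lipm at -0.73 and Ces1d at -0.67 in WT rats and Pnpla3 at -1.002, Lipm at -0.66 and Lipg at -0.51 in P1.hMR rats. Ces2c belongs to a multigene family whose copies may share reads.

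Among 11 binding proteins tested, 1 was called as higher and 1 as lower in each genotype. Fabp5, the epidermal fatty acid binding protein, rose from 3020 ± 313 to 4410 ± 433 TPM in WT (log2 fold change 0.55, limma adjusted p = 0.00409) and from 2720 ± 456 to 4070 ± 165 TPM in P1.hMR rats (0.60, adjusted p = 0.000181). Dbi, the acyl-CoA binding protein that carries the products of the synthetases, fell from 3840 ± 538 to 2040 ± 554 TPM in WT (limma adjusted p = 0.000551) and from 3850 ± 457 to 1660 ± 118 TPM for P1.hMR (adjusted p = 3.94e-06). Its log2 fold changes were -0.93 and -1.21.

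Of 11 other synthetases and transporters tested, 1 was called as higher in each genotype, and 1 (WT) and 2 (P1.hMR) as lower. Aacs, the acetoacetyl-CoA synthetase of the cytosol, rose by 0.70 in WT (limma adjusted p = 0.00131) and 0.86 for P1.hMR (adjusted p = 1.27e-05). Acss1, the mitochondrial acetyl-CoA synthetase, fell by 0.63 (limma adjusted p = 0.00157) and by 0.97 (adjusted p = 3.02e-06). Acsm2, a medium-chain synthetase of a multigene family, fell by 1.22 in P1.hMR rats (limma adjusted p = 0.00129) and had -0.76 in WT rats (adjusted p = 0.0848).

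Of 14 acyl-CoA thioesterases tested, which undo the synthetase step, none was called as higher, and 1 (WT) and 4 (P1.hMR) as lower. Acot1, of the cytosol, fell from 128 ± 13.2 to 72.4 ± 16.4 TPM in P1.hMR rats (log2 fold change -0.84, limma adjusted p = 0.000129) and had -0.22 in WT rats (adjusted p = 0.334), and the difference between these responses did not pass (interaction -0.61, adjusted p = 0.704). Acot12, which hydrolyses acetyl-CoA, fell by 1.12 in P1.hMR rats (limma adjusted p = 0.00412) and had -0.76 in WT rats (adjusted p = 0.111). The other called thioesterases, also named after their values were seen, were Acot4 at -0.52 in WT rats, and Acot2 and Them5, both at -0.56, in P1.hMR rats. Acot1 has near-identical neighbours in its family, so its level is uncertain.

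Of 19 genes of mitochondrial fatty acid oxidation, none was called in any comparison, beside 7.91% of all genes after UVB in WT and 10.8% in P1.hMR rats. Their median log2 fold change after UVB was 0.07 for WT and -0.07 for P1.hMR animals. The fold threshold decided this in P1.hMR rats. At a limma adjusted p under 0.05 alone, Acads passed there as higher after UVB. Acaa2, Acadl, Cpt1c, Cpt2, Decr1 and Hadha passed as lower, beside 39.1% of all genes. Under UVB all 19 had a lower mean in P1.hMR than in WT rats, at a median log2 fold change of -0.12, beside -0.02 over all genes. None of these differences was called, and the list was not tested as a set.

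**Figure D4:**
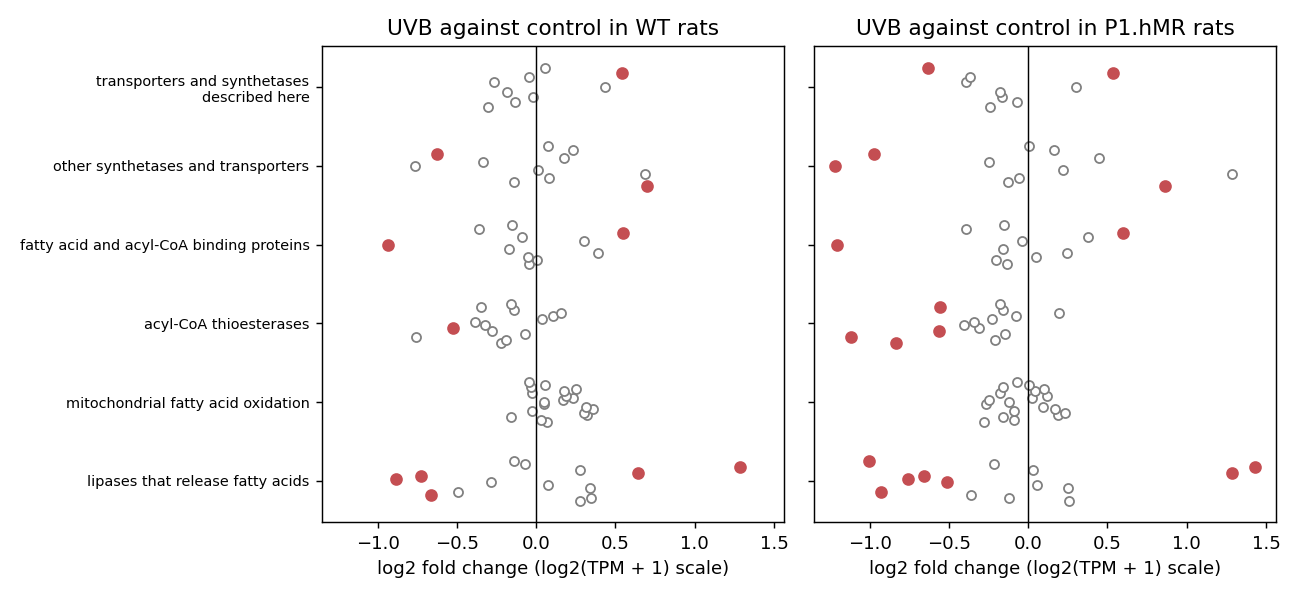
Log2 fold change after UVB in WT rats (left) and P1.hMR rats (right) on the log2(TPM + 1) scale, with 1 point for each gene tested, the members in the top row and 5 pathway lists below. Red points were called, and vertical position within a row only separates the points. Lpl lies at 1.28 and 1.43 among the lipases and Dbi at -0.93 and -1.21 among the binding proteins, while no gene of mitochondrial fatty acid oxidation was called.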

How the data were processed

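MGs of 17 rats were sequenced as total RNA. Per the study's methods, reads were aligned to rn7 with STAR and quantified with RSEM. The submitters' processing notes instead name FastQC, Trimmomatic, DRAGEN and Picard, and which of these made the values is not known. The authors deposited other values than counts, namely TPM for 17251 genes, written with decimal commas. Depth is therefore unknown, and the precision rests on the spread between rats. Listed TPM summed to 804378 to 840817 per rat, and no pair of rats had identical values.

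Each column was taken as a separate rat, assigned to its group by its label. After addition of 1 TPM and log2 transformation, the 13105 genes that reached 1 TPM in 3 or more rats were fitted with limma 3.58.1 in R 4.3.3, as 4 group means with a variance trend. The p-values are two-sided and Benjamini-Hochberg adjusted over all genes tested. The study used a count model for its own calls, which TPM do not allow. Shares and sums were compared with two-sided exact permutation tests (scipy 1.17.1, Python 3.11.15), adjusted over 12 tests. The model was tested on simulated data. Promoter motifs were searched on both strands of the 250 bases before the start in RefSeq GRCr8 entries, and all 9 members matched by symbol.

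The members, marker lists and pathway lists were chosen with earlier results of these data known. Besides the members, the text names in each pathway list up to 2 called genes with the largest rise and 2 with the largest fall, by the mean of both UVB log2 fold changes, and the 5 genes whose deviations from the group means correlated best with Slc27a4, the member with the smallest adjusted p. Marker genes given as examples, and the further lipases and thioesterases called, were named after their values were seen. Alternatives covered the pseudocount, the filter, scaling, the fit, the replicate block, marker covariates, the fold threshold and each rat left out.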

Additional observations from a re-analysis of the deposited data

Results flagged for a closer look

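Acsl3 stood out in 1 rat. Control P1.hMR rat 4 had 39.73 TPM, whereas the other 4 rats of its group had 33.12 to 34.4 TPM, and the gap took 0.806 of the group's range. Of 27 groups of 4 or 5 rats examined in this way, 1 held such a rat, and 1.35 would be flagged by chance at about 1 in 20 groups.

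Slc27a3 was singled out by the unadjusted p of its interaction of genotype and UVB, the only one under 0.05 among the 9 members. The interaction was -0.32 on the log2 scale at a limma p of 0.00248, and it did not pass after adjustment over all genes (adjusted p = 0.704), so a different response in the 2 genotypes was not shown. It ran from -0.36 to -0.25 when each rat was left out in turn, with adjusted p of 0.269 to 0.986.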

How the results depend on the processing

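The count of called members after UVB, 1 in WT and 2 in P1.hMR rats, depended on the fold threshold: without it 4 and 6 were called, and with a threshold of 1 in place of 0.5 it was 0 and 0. In WT rats it was also 0 with quantile normalization, where Slc27a4 had 0.50 (limma adjusted p = 0.000112). In P1.hMR rats it was 1 with no filter on low values and with the covariate for skeletal muscle or adipocyte markers, 0 with the covariate for meibocyte markers, and 0 to 2 when each rat was left out, the 0 without Control P1.hMR rat 3. The summed Slc27 difference in P1.hMR rats passed with median-of-ratios scaling (21.4 TPM, adjusted exact permutation p = 0.0476) and ranged from 14.1 to 20.6 TPM with each rat left out. Values near 0 changed sign. The Slc27a4 interaction was 0.02 with quantile normalization and with median-of-ratios scaling, and -0.07 to 0.03 over rats left out. In UVB against Control WT, Slc27a6 was -0.07 with sample weights and -0.18 to 0.26 over rats left out, Acsl3 was 0.03 with sample weights, 0.00 with the replicate block and -0.08 to 0.04 over rats left out, and Slc27a3 was 0.01 with the muscle covariate. Slc27a6 between genotypes under UVB was 0.02 with the meibocyte covariate and -0.28 to 0.03 over rats left out, and Acsbg1 between control genotypes -0.11 to 0.00. The causes were not tested. The rats shared only a number across groups: of 22 same-numbered pairs 4 had a correlation of deviations above 0.1, and the replicate block left 1 and 2 members called. TPM hold no depth, so counting error of low genes such as Slc27a6 could not be separated from the spread between rats.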

Other observations

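The genes whose deviations from the group means went most closely with those of Slc27a4 over the 17 rats were LOC100361854 (Pearson r = 0.837), Pex11g, a peroxisomal membrane gene (0.832), the lysosomal protease gene Ctsd (0.826), Smap1 (0.82) and Enah (0.811). Among the members, Acsbg1 went most closely with Slc27a4 (0.533), whereas Acsl5 reached 0.281, and Slc27a3 and Acsl3 went most strongly in opposite directions (-0.512). These are descriptions over rats that share 1 normalization, chosen as the largest of many, and no test was made.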
